A study of Mus musculus with 4 samples.

Results

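The nuclear genes of the mitochondrial respiratory chain and ATP synthase were followed complex by complex in RNA sequencing of mouse mammary tumours. Members were the gene symbols that begin with Ndufa, Ndufb, Ndufc, Ndufs, Ndufv, Sdha to Sdhd, Uqcr, Cox4 to Cox8 or Atp5, together with Cyc1 and Cycs. The rule found 98 of the 23238 symbols. They comprised 36 genes of complex I, 4 of complex II, 10 of complex III with cytochrome c, 19 of complex IV, 15 of complex V, 11 assembly factors (7 Ndufaf and 4 Sdhaf genes), the supercomplex factor Cox7a2l, and Atp5s and Atp5sl, which the symbols catch without their being counted here as subunits. The subunits encoded by mitochondrial DNA were not analysed here.

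All tumours came from female FVB mice aged 14 weeks that carried PyMT, the polyoma virus middle T antigen, an oncogene that drives mammary carcinoma. The genotypes were Nr1d1+/+;PyMT and Nr1d1-/-;PyMT, with 2 libraries each, so that the controls carried the oncogene too. Libraries are named below by these labels. Nr1d1 encodes REV-ERBα, a repressor of the circadian clock and of metabolic genes. The labels name neither the promoter of PyMT nor the deleted part of Nr1d1, and they do not say that replicates came from separate animals. Each p-value thus rests on the spread between libraries that may be technical replicates.

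Nr1d1 itself did not separate the genotypes: the Nr1d1+/+ libraries read 20.1 and 10.3 CPM, and those labelled Nr1d1-/- read 10.6 and 12.8 CPM. Here CPM means counts scaled to a common library total with the TMM factors of edgeR, which bring most genes to a common level. The counts cover the gene as a whole, so they cannot check a deletion of unknown extent. Total counts ranged from 15905404 to 19116279 per library. Summed luminal epithelial markers (8 of 8 detected) reached 13393 and 10781 CPM in the Nr1d1+/+ libraries and 14155 and 15067 CPM in those labelled Nr1d1-/-. Among them Krt8, Krt18 and Krt19 were called higher (log2 folds 0.92, 1.12 and 1.33) and Cdh1 lower (-0.73) in the test described below, and Wfdc18 alone read 7152 and 5088 against 4224 and 5407 CPM. Skeletal muscle markers stood out in Nr1d1-/- replicate 1, where the sum of 12 genes was 852 CPM against 3.40 to 7.81 CPM in the other libraries.

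Complexes I to IV pass electrons from NADH and succinate to oxygen and, except for complex II, pump protons out of the mitochondrial matrix. Complex V, the ATP synthase, lets the protons return and makes ATP. Each complex except complex II joins nuclear subunits to subunits of mitochondrial DNA, and assembly factors bring the parts together without staying in the finished enzyme. PGC-1 coactivators act on these nuclear genes through NRF1, GABPA (NRF2), ERRα and YY1, and REV-ERBα has been linked to mitochondrial content in skeletal muscle.

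Most tested subunits of complexes I, III, IV and V were higher in the libraries labelled Nr1d1-/-, while in complex II a single subunit was higher. Of 84 subunit and cytochrome c genes, 81 had enough counts for a test, and 55 of these rose, 1 fell and 25 did not pass (edgeR quasi-likelihood test, Benjamini-Hochberg adjusted p under 0.05 over 14801 genes). In the same test 16.5% of the 14801 genes passed as higher and 17.3% as lower, 33.9% in either direction. The median log2 fold was 0.75 over the subunits and -0.01 over all tested genes. By complex, 25 of 36 tested genes rose in complex I, 1 of 4 in complex II, 6 of 10 in complex III with cytochrome c, 12 of 16 in complex IV and 11 of 15 in complex V. The median log2 folds in the same order were 0.83, -0.04, 0.73, 0.85 and 0.74. Of 11 assembly factors 3 rose, with a median of 0.45.

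**Figure D1:**
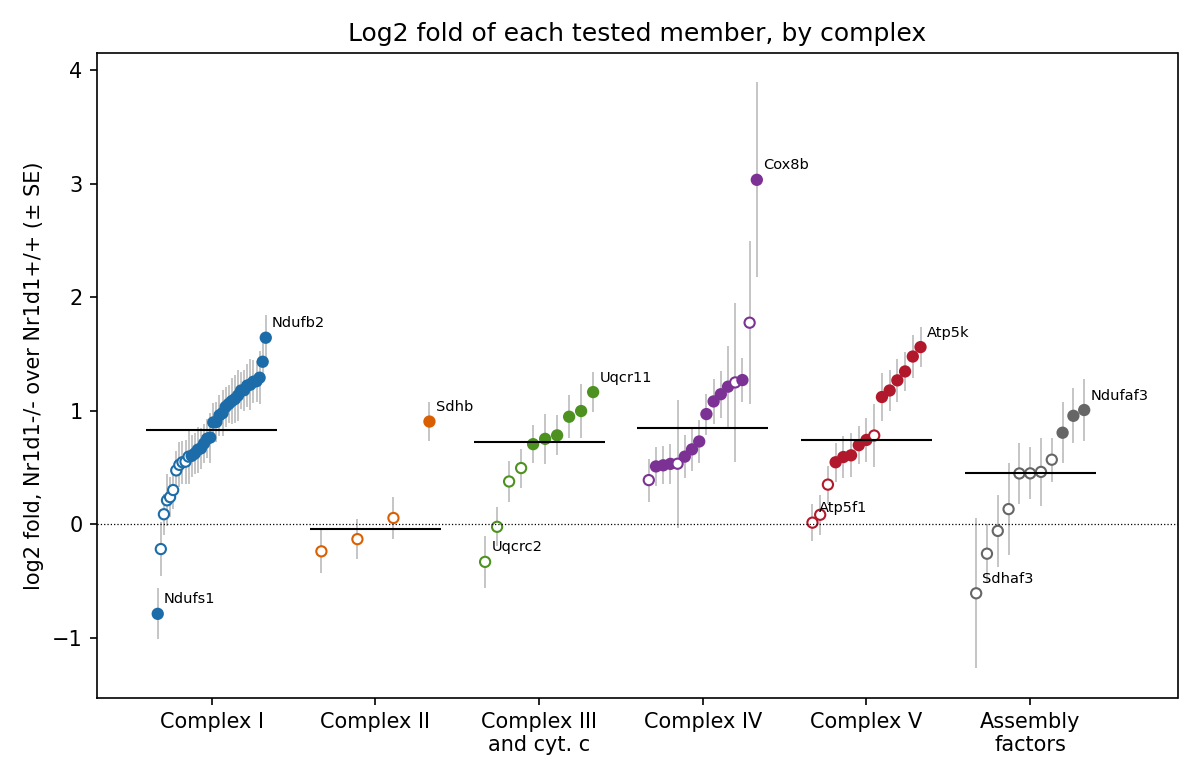
Log2 fold of each tested member between the libraries labelled Nr1d1-/- and the Nr1d1+/+ libraries (vertical axis, bars are standard errors), by complex. Filled points passed an adjusted p of 0.05, horizontal lines are medians, and complexes I, III, IV and V have medians of 0.73 to 0.85 while complex II lies at -0.04.

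The 84 genes together held 1.47% and 1.4% of all counts in Nr1d1+/+ replicates 1 and 2, and 1.93% and 1.79% in the libraries labelled Nr1d1-/-. Exact binomial 95% intervals ran from 1.39% to 1.41% for the lowest share and from 1.92% to 1.93% for the highest, and they cover counting error only. After TMM scaling the summed level of complex I was 4477 and 3883 CPM against 7887 and 6897 CPM. Complex IV showed 2139 and 1868 CPM against 3900 and 3408 CPM. Both sums were higher in each library labelled Nr1d1-/- than in either Nr1d1+/+ library, and so were those of complex III with cytochrome c (1358 and 1232 against 2106 and 1967 CPM) and complex V (4951 and 4547 against 8095 and 7299 CPM). Complex II moved less, from 369 CPM in each Nr1d1+/+ library to 474 and 431 CPM. Its share of all counts, without TMM scaling, did not rise. That share was 0.0409% and 0.0434% in the Nr1d1+/+ libraries and 0.0407% and 0.0386% in the others. In bulk tissue, more RNA per cell cannot be told apart from more cells of a type.

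**Figure D2:**
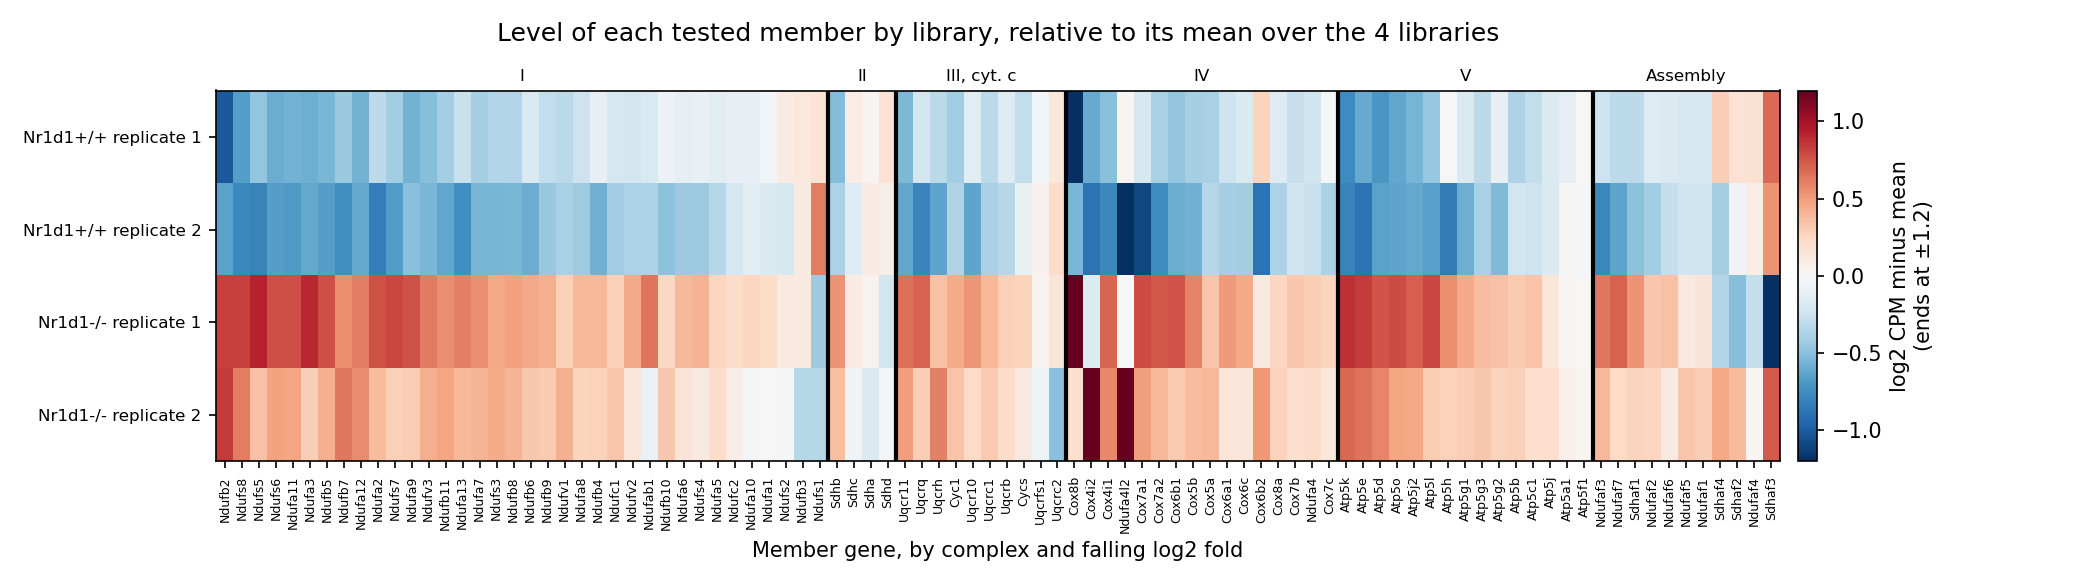
Level of each tested member in each library, as log2 CPM minus the mean over the 4 libraries (colour), ordered by complex and by falling log2 fold. Most columns of complexes I, III, IV and V are below their mean in both Nr1d1+/+ libraries and above it in both libraries labelled Nr1d1-/-, and within each genotype replicate 1 exceeds replicate 2 for 65 of 81 subunits.

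The libraries of both genotypes did not overlap for most subunits. Both libraries labelled Nr1d1-/- lay above both Nr1d1+/+ libraries for 70 of the 81 subunits and below them for 3, Ndufs1, Ndufb3 and Sdhd, with 8 overlapping. Over all tested genes 34.4% lay above in this way and 36.2% below.

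Promoter sequences are shown for 4 members, in complexes I, III, IV and V. Each was the called-higher gene of its complex with the lowest p whose 100 bases before the start held a searched motif. A motif was thus a condition for being shown, and members with lower p were passed over in complexes I and IV. RefSeq windows of 250 bases before to 50 bases after the start (GRCm38.p6) were at hand for 67 of the 84 genes, and consensus motifs, taken from general knowledge and from no deposited file, were searched on both strands. The NRF1 motif was found in 16 of 67 windows (23.9%, against 4.78% of all 27025 windows). The GABPA motif CCGGAAG occurred in 15 (22.4% against 9.12%), and the YY1 motif AAGATGGC in 8 (11.9% against 2.88%). The ERRα motif TCAAGGTCA was seen in 2 (2.99% against 0.407%), while the REV-ERB and ROR motif was in none (against 0.222%). Among the genes with a window, the NRF1 motif was present in 11 of 49 that rose and 5 of 18 that did not, and the GABPA motif in 13 of 49 and 2 of 18. A motif match is a description of letters, not a binding site. The lines below give the 100 bases before the RefSeq start, 5′ to 3′ on the gene's own strand, with the motif in capitals. By the gene positions given further below, the windows of Atp5k and Uqcr11 reach into the gene, in Atp5k with bases of the marked motif. Ndufs6 (chr13:73328483-73328582, minus strand) and Atp5k (chr5:108434400-108434499, minus strand) carry the NRF1 motif, and Uqcr11 (chr10:80406822-80406921, minus strand) and Cox6b1 (chr7:30626115-30626214, minus strand) carry the GABPA motif. In these 4 windows the first motif base lies 16, 50, 66 and 28 bases before the start for Ndufs6, Atp5k, Uqcr11 and Cox6b1.
Ndufs6: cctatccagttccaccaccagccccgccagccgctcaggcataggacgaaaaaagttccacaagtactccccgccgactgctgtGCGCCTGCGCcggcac
Atp5k: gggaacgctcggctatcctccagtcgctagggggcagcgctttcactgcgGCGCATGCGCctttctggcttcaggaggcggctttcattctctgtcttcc
Uqcr11: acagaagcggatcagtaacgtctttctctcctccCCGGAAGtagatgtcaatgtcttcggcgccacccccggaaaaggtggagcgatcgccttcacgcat
Cox6b1: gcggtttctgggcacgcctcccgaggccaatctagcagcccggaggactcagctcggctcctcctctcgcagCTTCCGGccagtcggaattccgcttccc

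Complex I oxidises NADH at the tip of its matrix arm and hands the electrons to ubiquinone. Its nuclear core subunits include those that bind the flavin and the iron-sulphur clusters of that arm, and 5 core genes rose and 1 fell. Ndufs8, which carries a pair of iron-sulphur clusters near the quinone site, was the core gene with the lowest p (chr19:3908863-3912774, minus strand, GRCm38). Its levels were 105.3 and 97.3 CPM in the Nr1d1+/+ libraries against 293.2 and 253.7 CPM in those labelled Nr1d1-/- (log2 fold 1.43, SE 0.18, adjusted p = 0.00209). Both genotypes were well apart, and the call held in each alternative fit. Ndufs7, which holds the last cluster before ubiquinone, read 128.3 and 107.9 against 298.1 and 209.8 CPM (log2 fold 1.10, SE 0.21, adjusted p = 0.00644). Ndufs3, a scaffold of the quinone module, reached 71.9 and 62.2 against 126.1 and 124.5 CPM (log2 fold 0.90, SE 0.18, adjusted p = 0.00675). In each of these genes no library of one genotype overlapped the other. The smaller rises were those of Ndufv1, the subunit that binds NADH and the flavin (log2 fold 0.71, SE 0.17, adjusted p = 0.0141), and Ndufv2, its iron-sulphur partner (log2 fold 0.60, SE 0.19, adjusted p = 0.0352). With the GC and length trends removed Ndufv2 kept its call, while Ndufs7, Ndufs3 and Ndufv1 lost theirs. Leaving out a library ended the calls of Ndufv1 (adjusted p = 0.066) and Ndufv2 (0.0864) without Nr1d1+/+ replicate 1, of Ndufs3 (0.0573), Ndufv1 (0.0939) and Ndufv2 (0.181) without Nr1d1+/+ replicate 2 and of Ndufv2 (0.176) without Nr1d1-/- replicate 1.

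Ndufs1, the largest iron-sulphur subunit of the same arm, was the single member called lower (chr1:63143596-63176833, minus strand). It stood at 38.5 and 52.7 CPM in the Nr1d1+/+ libraries and 25.6 and 27.3 CPM in those labelled Nr1d1-/- (log2 fold -0.79, SE 0.23, adjusted p = 0.0277). Both Nr1d1-/- values were low and close together, and the Nr1d1+/+ values spread more widely. Leaving out Nr1d1+/+ replicate 2 (log2 fold -0.57, adjusted p = 0.214) or Nr1d1-/- replicate 1 (adjusted p = 0.0731) ended the call, and so did taking out the GC and length trends (log2 fold -0.49, adjusted p = 0.132). Ndufs1 also had the lowest level of complex I per length, 13.5 CPM per kilobase on average. Set against Ndufv1, its neighbour in the NADH module, the ratio of levels per kilobase was 0.256 and 0.365 in the Nr1d1+/+ libraries and 0.111 and 0.108 in the others. Such ratios within a library do not depend on the scaling between libraries, but they keep any trend with transcript length or GC content. All pairs given here were chosen after their values were seen.

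Of the 29 accessory subunits of complex I, which surround and stabilise the core, 20 rose and 9 did not pass. Ndufb2, a small subunit of the membrane arm, had the largest log2 fold of the complex (chr6:39592574-39603382, plus strand). Its levels were 26.5 and 34.2 CPM in the Nr1d1+/+ libraries and 94.1 and 95.4 CPM in those labelled Nr1d1-/- (log2 fold 1.64, SE 0.20, adjusted p = 0.00207). The lower of the Nr1d1-/- values was well above the higher of the Nr1d1+/+ values. Ndufa12, an accessory subunit of the NADH module, read 176.4 and 170.3 against 398.7 and 386.3 CPM (log2 fold 1.18, SE 0.17, adjusted p = 0.00264). Ndufs6, a zinc-binding subunit of that module whose promoter is printed above, reached 124.9 and 119.2 against 321.9 and 263.0 CPM (log2 fold 1.26, SE 0.18, adjusted p = 0.00274). The Ndufs6 call was lost with the GC and length trends removed (log2 fold 0.53, adjusted p = 0.0651), whereas Ndufb2 and Ndufa12 kept theirs (0.95 and 0.81). Ndufa9, Ndufb5 and Ndufv3 were also called higher in each alternative fit, with log2 folds of 1.09, 1.22 and 1.06. Ndufb9, a membrane-arm subunit of the LYR family, had the highest level of complex I per length, with 402.4 and 360.7 CPM per kilobase in the Nr1d1+/+ libraries and 671.3 and 616.9 in the others (log2 fold 0.76, adjusted p = 0.0118). Ndufab1, the mitochondrial acyl carrier protein, did not pass (log2 fold 0.60, adjusted p = 0.0904) but was called with the GC and length trends removed (log2 fold 0.99, adjusted p = 0.0271). Ndufb3 was the accessory gene with the lowest log2 fold, 27.3 and 27.0 against 27.0 and 19.8 CPM (log2 fold -0.22, adjusted p = 0.506). By name, 8 of 13 Ndufa, 8 of 10 Ndufb, 1 of 2 Ndufc, 5 of 8 Ndufs and 3 of 3 Ndufv genes rose. The Ndufb9 call was lost without Nr1d1+/+ replicate 2 (adjusted p = 0.0818).

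Complex II, the succinate dehydrogenase shared by the citric acid cycle and the respiratory chain, differed between its subunits. Sdhb, the iron-sulphur subunit (chr4:140961203-140979193, plus strand), rose from 109.1 and 119.9 CPM in the Nr1d1+/+ libraries to 227.8 and 201.3 CPM in those labelled Nr1d1-/- (log2 fold 0.91, SE 0.17, adjusted p = 0.00612). Sdha, the flavoprotein that binds succinate, read 122.3 and 127.7 against 122.6 and 106.0 CPM (log2 fold -0.13, SE 0.17, adjusted p = 0.595). The membrane anchors did not pass either: Sdhc reached 77.2 and 65.3 against 77.9 and 70.4 CPM (log2 fold 0.06, adjusted p = 0.834). Sdhd showed 60.6 and 56.3 against 46.2 and 53.0 CPM (log2 fold -0.24, adjusted p = 0.359), with both Nr1d1-/- values below both others. The ratio of Sdhb to Sdha levels per kilobase was 2.26 and 2.39 in the Nr1d1+/+ libraries and 4.72 and 4.82 in the libraries labelled Nr1d1-/-. Within each genotype these ratios were nearly the same. With 2 libraries a genotype an exact permutation test of such a ratio cannot go below p = 0.333, so none was made. The Sdhb call was kept in each fit that left out a library and was lost with the GC and length trends removed (log2 fold 0.38, adjusted p = 0.154). Scaled by library size alone, Sdha and Sdhd were called lower (log2 folds -0.51 and -0.61, adjusted p = 0.0435 and 0.0344).

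Complex III takes electrons from ubiquinol to cytochrome c. The largest log2 folds were those of small subunits. Uqcr11, a small membrane subunit (chr10:80402997-80406830, minus strand), went from 85.0 and 80.4 to 195.7 and 175.2 CPM (log2 fold 1.17, SE 0.17, adjusted p = 0.0029). Uqcrh, the hinge protein that helps cytochrome c dock, read 222.4 and 179.5 against 354.3 and 421.1 CPM (log2 fold 0.95, SE 0.19, adjusted p = 0.00736). In both genes the genotypes were apart. Uqcrq and Uqcr10, other small subunits, also rose (log2 folds 1.0 and 0.75, adjusted p = 0.0134 and 0.0303). Cyc1, the haem-binding cytochrome c1, rose from 54.3 and 56.6 to 99.0 and 92.0 CPM (log2 fold 0.78, SE 0.18, adjusted p = 0.011). Uqcrc1, a core protein of the matrix side, read 217.7 and 208.1 against 357.9 and 337.1 CPM (log2 fold 0.71, SE 0.17, adjusted p = 0.0132). The partner core protein Uqcrc2 did not pass, at 96.2 and 102.0 against 96.3 and 61.5 CPM (log2 fold -0.33, SE 0.23, adjusted p = 0.293). It was low in Nr1d1-/- replicate 2 only, and without Nr1d1-/- replicate 1 it was called lower (log2 fold -0.69, adjusted p = 0.047). Library size scaling called it lower as well (log2 fold -0.72, adjusted p = 0.0301). The Uqcrc1 to Uqcrc2 ratio of levels per kilobase was 2.60 and 2.34 in the Nr1d1+/+ libraries and 4.26 and 6.29 in the others. Uqcrfs1, the Rieske iron-sulphur protein, was level in all 4 libraries, at 84.4 and 89.5 and 88.9 and 82.7 CPM (log2 fold -0.02, adjusted p = 0.938). Uqcrb, a quinone-binding small subunit with the highest level of the complex per length (617.7 CPM per kilobase), missed the threshold (log2 fold 0.50, adjusted p = 0.0523). With the GC and length trends removed Uqcrq kept its call, while Uqcr11, Uqcrh, Uqcr10, Cyc1 and Uqcrc1 lost theirs. Calls lost when a library was left out were those of Cyc1 (adjusted p = 0.07) and Uqcrc1 (0.0557) without Nr1d1+/+ replicate 1, of Uqcrh (0.0545), Uqcrq (0.082), Uqcr10 (0.219), Cyc1 (0.0616) and Uqcrc1 (0.0829) without Nr1d1+/+ replicate 2 and of Uqcr10 (0.107) without Nr1d1-/- replicate 1.

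Cycs, the mobile carrier cytochrome c, had the lowest level per length of its group, 42.6 CPM per kilobase. It read 107.5 and 123.9 against 158.7 and 142.2 CPM and did not pass (log2 fold 0.38, SE 0.18, adjusted p = 0.129). With the GC and length trends removed it was called higher (log2 fold 0.87, adjusted p = 0.0115). Its annotated transcript is long, 3123 bases. It matches 14 other annotated genes at 97% identity or more over at least 100 bases, so its reads could be split in counting.

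Complex IV reduces oxygen. Its 11 broadly expressed nuclear subunits, which clothe the mitochondrially encoded core, gave 10 higher and 1 that did not pass. Cox4i1 (chr8:120668222-120674207, plus strand), through which ATP is thought to regulate the enzyme, had the highest level of the complex per length, 1007 CPM per kilobase. It rose from 480.9 and 398.2 CPM in the Nr1d1+/+ libraries to 1104 and 1017 CPM in those labelled Nr1d1-/- (log2 fold 1.27, SE 0.19, adjusted p = 0.00293). Both values of one genotype lay far from both of the other. Cox7a2, the broadly expressed form of subunit 7a, read 71.8 and 55.6 against 157.7 and 124.3 CPM (log2 fold 1.15, SE 0.21, adjusted p = 0.0051). Cox6b1, which faces the intermembrane space, reached 158.0 and 145.1 against 370.6 and 271.6 CPM (log2 fold 1.08, SE 0.20, adjusted p = 0.0053). Cox5b, the zinc-binding subunit, read 290.5 and 257.2 against 579.4 and 494.7 CPM (log2 fold 0.97, SE 0.18, adjusted p = 0.00553), and it was the only gene of the complex called in each alternative fit. The calls of Cox4i1, Cox7a2 and Cox6b1 were lost with the GC and length trends removed (log2 folds 0.49, 0.62 and 0.59). Smaller rises passed for Cox5a, Cox6a1, Cox6c, Cox7b, Cox8a and Ndufa4, with log2 folds of 0.73, 0.66, 0.60, 0.52, 0.53 and 0.51. Ndufa4 was first assigned to complex I and belongs to complex IV. Cox6a1 and Cox8a turned to -0.24 and -0.36 with the trends removed and were not called there. Cox7c did not pass, at 119.3 and 93.1 against 145.7 and 132.7 CPM (log2 fold 0.39, adjusted p = 0.142), and the ratio of Cox4i1 to Cox7c levels per kilobase was 2.92 and 3.10 against 5.49 and 5.55. The Cox7c transcript closely matches 2 other genes, Gm10012 and Gm12338, which are counted under their own symbols. Its reads could thus be split in counting. Refits with a library left out lost the calls of Cox5a (adjusted p = 0.11), Cox6a1 (0.0766), Cox6c (0.0717), Cox7b (0.189), Cox8a (0.0862) and Ndufa4 (0.197) without Nr1d1+/+ replicate 1, of Cox5a (0.0991), Cox6a1 (0.155), Cox6c (0.224), Cox7b (0.162), Cox8a (0.268) and Ndufa4 (0.226) without Nr1d1+/+ replicate 2, of Cox6a1 (0.133), Cox6c (0.19), Cox7b (0.141), Cox8a (0.101) and Ndufa4 (0.128) without Nr1d1-/- replicate 1 and of Cox7b (0.0689), Cox8a (0.112) and Ndufa4 (0.0852) without Nr1d1-/- replicate 2.

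The other complex IV genes are isoforms of restricted tissues, and all were low in the tumours. Cox8b, a heart, skeletal muscle and brown fat form of subunit 8 (chr7:140898945-140900446, minus strand), was called higher (log2 fold 3.03, SE 0.86, adjusted p = 0.0265), with 0.378 and 1.29 CPM in the Nr1d1+/+ libraries and 11.9 and 2.17 CPM in those labelled Nr1d1-/-. The value of Nr1d1-/- replicate 1 was far above the other 3. That is the library in which the 12 skeletal muscle markers summed to 852 CPM, and without it the call was lost (log2 fold 1.37, adjusted p = 0.197), as it was without Nr1d1+/+ replicate 1 (adjusted p = 0.0987), with no low-count filter (0.0624) and after trend removal (0.103). Cox8b made up 0.142% and 0.565% of the Cox8 counts in the Nr1d1+/+ libraries and 3.23% and 0.599% in the others. Cox6a2, the heart and muscle form of subunit 6a, had counts of 0, 3, 47 and 7 and did not pass the low-count filter. Among the fits that tested it, DESeq2 and the one without Nr1d1-/- replicate 2 called it higher (adjusted p = 0.0062 and 0.00378), while those with no filter and without either Nr1d1+/+ library did not (adjusted p = 0.0564, 0.165 and 0.104). It too was highest in Nr1d1-/- replicate 1, where it held 1.71% of the Cox6a counts (exact binomial 95% interval 1.26% to 2.27%). In that library all 12 muscle markers were detected, while 3, 3 and 5 of the 12 were at 0 in Nr1d1+/+ replicates 1 and 2 and in Nr1d1-/- replicate 2. The part of muscle RNA in these isoform values was not tested.

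Cox7a1, the muscle form of subunit 7a, was not confined to that library. It read 7.85 and 4.21 against 15.4 and 12.6 CPM (log2 fold 1.21, SE 0.36, adjusted p = 0.0304), and its share of Cox7a counts was 9.86% and 7.04% against 8.89% and 9.23%. The share overlapped between genotypes, and Cox7a1 and Cox7a2 had similar log2 folds. Leaving out Nr1d1-/- replicate 1 or Nr1d1+/+ replicate 2 took the Cox7a1 call away (adjusted p = 0.0854 and 0.209), and so did library size scaling (0.0855), no low-count filter (0.0559) and trend removal (0.321). Cox4i2, a form of subunit 4 known from lung and low oxygen, read 0.756 and 0.622 against 1.03 and 3.6 CPM and did not pass (log2 fold 1.78, SE 0.72, adjusted p = 0.0865), but was called higher without Nr1d1-/- replicate 1 (log2 fold 2.37, adjusted p = 0.0177). Ndufa4l2, a paralogue induced by low oxygen, reached 1.04 and 0.431 against 1.03 and 2.42 CPM (log2 fold 1.25, adjusted p = 0.198). Both were highest in Nr1d1-/- replicate 2. The 10 pericyte markers summed to 77.9 and 99.1 CPM against 122 and 77.6 CPM, with none at 0, but 3 of them were called higher and 1, Notch3, lower (log2 fold -1.26). Des, which muscle also expresses, gave 1.37 and 2.39 against 61.4 and 6.51 CPM of these sums. The 7 brown adipocyte markers summed to 19.3 and 16.6 against 51.9 and 38.6 CPM, with Elovl3 at 0 in all 4 libraries and Ucp1 at 0 in Nr1d1-/- replicate 2. Most of each sum was Ppargc1a, also a regulator described below, with 13.5 and 12.2 against 40.4 and 28.0 CPM. Their part in the isoform levels was not tested. Of the testis forms, Cox6b2 was low, at 2.13 and 0.957 and 1.9 and 2.54 CPM (log2 fold 0.53, adjusted p = 0.49), Cox7b2 had 1, 0, 2 and 1 counts, and Cox8c had no count in any library. A count of 0 allows up to 0.142 to 0.220 CPM, by library.

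**Figure D3:**
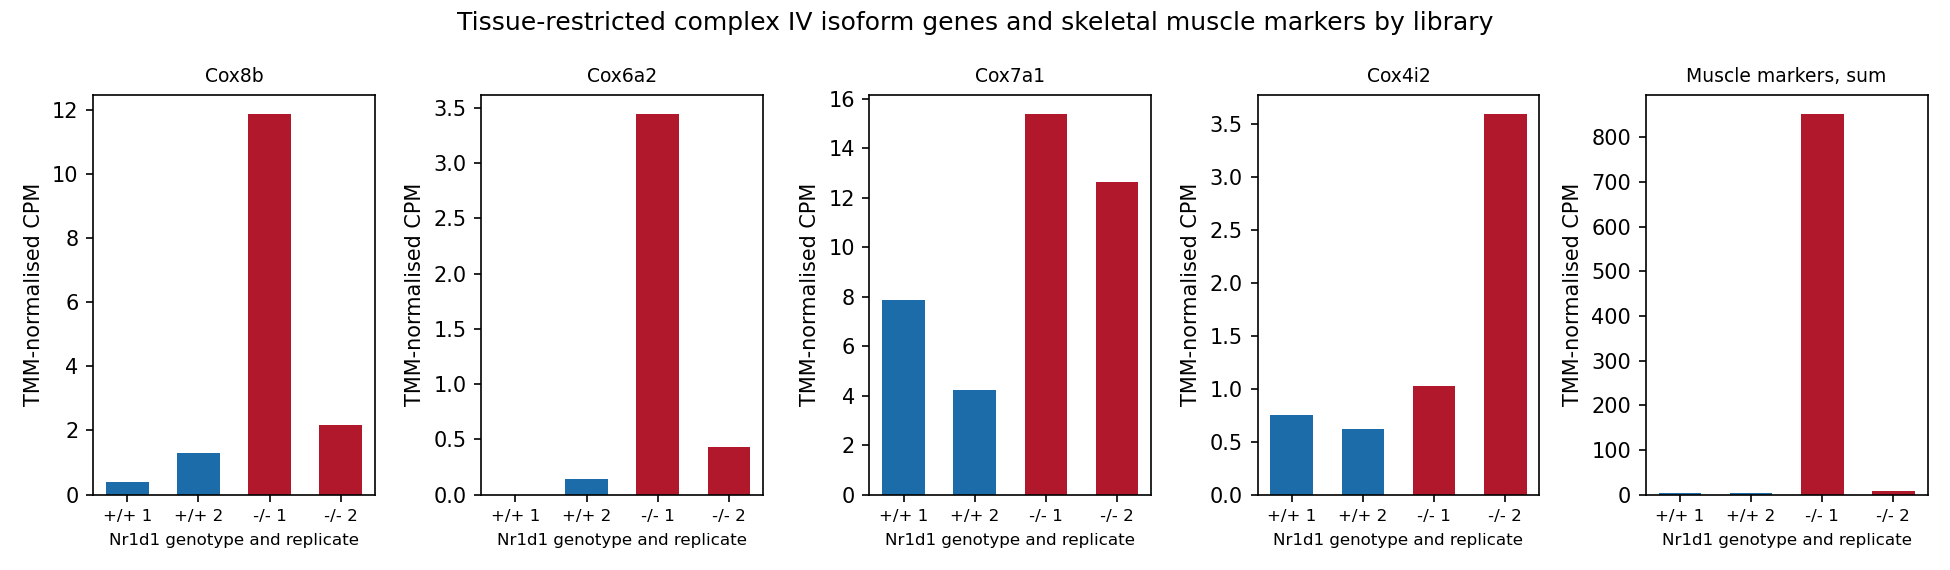
TMM-normalised CPM (vertical axes, from 0) of 4 tissue-restricted complex IV genes and the summed CPM of 12 skeletal muscle markers in each library, with Nr1d1+/+ in blue and the libraries labelled Nr1d1-/- in red. Cox8b and Cox6a2 peak in Nr1d1-/- replicate 1 together with the muscle markers, Cox4i2 peaks in Nr1d1-/- replicate 2, and Cox7a1 is higher in both libraries labelled Nr1d1-/-.

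Complex V consists of the catalytic F1 head, the stalks and the membrane rotor. Of the 5 genes of F1, 4 rose, but by unequal amounts. The small subunits of the central stalk rose most: Atp5d, the delta subunit, went from 175.8 and 183.4 to 482.8 and 431.0 CPM (log2 fold 1.35, SE 0.17, adjusted p = 0.00223). Atp5e, the epsilon subunit, read 49.5 and 41.0 against 134.3 and 117.9 CPM (log2 fold 1.48, SE 0.19, adjusted p = 0.00223) and had the lowest level of the complex per length (203.5 CPM per kilobase). The genotypes were clearly apart in both genes. With the GC and length trends removed Atp5e kept its call, and Atp5d was called only when the trends were taken by the longest transcript. Atp5b, the catalytic beta subunit, rose from 702.5 and 779.9 to 1131 and 1106 CPM (log2 fold 0.59, SE 0.18, adjusted p = 0.0345), and Atp5c1, the gamma subunit, had a log2 fold of 0.55 (adjusted p = 0.0374). Atp5a1, the alpha subunit that alternates with beta in the head, stayed at 673.4 and 732.4 and 735.0 and 756.8 CPM (log2 fold 0.09, SE 0.18, adjusted p = 0.734). The ratio of Atp5b to Atp5a1 levels per kilobase was 1.35 and 1.37 in the Nr1d1+/+ libraries and 1.98 and 1.88 in the others. For Atp5d over Atp5a1 it was 0.693 and 0.665 against 1.74 and 1.51, so that neither ratio overlapped between genotypes. Neither the Atp5b nor the Atp5c1 call held in any of the 4 fits that left out a library, with adjusted p from 0.0912 to 0.186 for Atp5b and from 0.0723 to 0.171 for Atp5c1.

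Of the 10 stalk and membrane genes of complex V, 7 rose and 3 did not pass. Atp5k, the e subunit at the dimer interface (chr5:108433244-108434448, minus strand), had the lowest p of all members, with 117.8 and 113.9 CPM in the Nr1d1+/+ libraries and 363.8 and 319.9 CPM in those labelled Nr1d1-/- (log2 fold 1.56, SE 0.17, adjusted p = 0.00182). Atp5o, the OSCP protein that joins the peripheral stalk to F1, read 320.3 and 318.4 against 851.6 and 687.1 CPM (log2 fold 1.27, SE 0.19, adjusted p = 0.00289). The members that sit with Atp5k in the membrane, Atp5l (g subunit) and Atp5j2 (f subunit), had log2 folds of 1.12 and 1.18 (adjusted p = 0.0056 and 0.00295). These 4 genes and Atp5e were called higher in each alternative fit. The peripheral stalk was uneven: Atp5f1, the b subunit, was level at 379.5 and 371.2 and 376.1 and 383.1 CPM (log2 fold 0.02, adjusted p = 0.949). Atp5j, the coupling factor 6, read 369.0 and 367.8 against 458.9 and 480.8 CPM (log2 fold 0.35, adjusted p = 0.135). Atp5h, the d subunit with the highest level of the complex per length (1658 CPM per kilobase), showed 976.5 and 546.9 against 1436 and 1185 CPM (log2 fold 0.78, SE 0.28, adjusted p = 0.0565). Its Nr1d1+/+ values lay far apart, and without Nr1d1+/+ replicate 1 it was called higher (log2 fold 1.21, adjusted p = 0.00888).

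The rotor ring subunit c comes from 3 genes that encode the same mature protein behind different import signals. Atp5g1 read 112.7 and 84.9 against 174.8 and 156.3 CPM (log2 fold 0.74, adjusted p = 0.0202), Atp5g2 149.1 and 110.3 against 202.5 and 193.0 CPM (log2 fold 0.61, adjusted p = 0.0404) and Atp5g3 170.6 and 162.1 against 273.8 and 265.8 CPM (log2 fold 0.70, adjusted p = 0.0135). All 3 rose, and their shares of the summed counts stayed within narrow ranges. Atp5g1 held 23.8% to 26.8%, Atp5g2 30.9% to 34.5% and Atp5g3 39.5% to 45.4% over the 4 libraries. Atp5g1 and Atp5g2 turned to -0.02 and -0.13 once both trends were removed and were not called there, nor was Atp5g3. With a library left out, calls were lost in the cases of Atp5g3 (adjusted p = 0.0577) without Nr1d1+/+ replicate 1, of Atp5g1 (0.162), Atp5g2 (0.297) and Atp5g3 (0.0895) without Nr1d1+/+ replicate 2, of Atp5g1 (0.0638) and Atp5g2 (0.104) without Nr1d1-/- replicate 1 and of Atp5g2 (0.0753) without Nr1d1-/- replicate 2.

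Assembly factors gave 3 of 11 genes called higher and 8 not passing. Ndufaf7, a methyltransferase needed for complex I assembly (chr17:78937136-78948052, plus strand), read 23.2 and 18.7 against 47.2 and 34.1 CPM (log2 fold 0.96, SE 0.24, adjusted p = 0.0178). Ndufaf3, a factor of the quinone module, reached 14.1 and 9.81 against 26.0 and 22.2 CPM (log2 fold 1.01, SE 0.27, adjusted p = 0.0218). Sdhaf1, which helps insert the iron-sulphur clusters of Sdhb, rose from 10.1 and 8.95 to 18.2 and 15.2 CPM (log2 fold 0.81, SE 0.27, adjusted p = 0.0465). All 3 were apart between genotypes, and none was called with library size scaling (adjusted p = 0.0834, 0.0907 and 0.247). With GC and length trends taken out Ndufaf3 was not called (log2 fold 0.55, adjusted p = 0.162), and Sdhaf1 was not called by DESeq2 (0.0549), with no low-count filter (0.0654) or with trends by the longest transcript (0.055). Calls were also lost in the cases of Sdhaf1 (adjusted p = 0.147) without Nr1d1+/+ replicate 1, of Ndufaf7 (0.12), Ndufaf3 (0.169) and Sdhaf1 (0.245) without Nr1d1+/+ replicate 2, of Ndufaf7 (0.0781), Ndufaf3 (0.0666) and Sdhaf1 (0.151) without Nr1d1-/- replicate 1 and of Sdhaf1 (0.0513) without Nr1d1-/- replicate 2. Ndufaf2, a factor that holds the place of Ndufa12 during assembly, had the highest level per length of the group and missed the threshold, at 41.8 and 34.9 against 58.2 and 55.6 CPM (log2 fold 0.57, adjusted p = 0.051). Sdhaf3 had the lowest level, 2.74 and 2.49 and 0.44 and 2.85 CPM, and was low in Nr1d1-/- replicate 1 (log2 fold -0.61, SE 0.66, adjusted p = 0.506). The difference between subunits and assembly factors was itself not tested. Cox7a2l, which joins complexes III and IV in supercomplexes, rose from 79.5 and 68.8 to 126.6 and 138.3 CPM (log2 fold 0.84, SE 0.18, adjusted p = 0.00919), but was not called without Nr1d1+/+ replicate 2 (adjusted p = 0.0771), by library size scaling (log2 fold 0.46, adjusted p = 0.0682), after trend removal (log2 fold 0.53, adjusted p = 0.0555) or after removal by the longest transcript (log2 fold 0.52, adjusted p = 0.0603). Atp5s and Atp5sl did not pass.

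Genes of the same pathway outside the symbol rule were taken from a list of such genes. Of 37 other assembly factors 5 rose (13.5%), 4 fell and 28 did not pass, with a median log2 fold of 0.01. Over all tested genes 16.5% passed as higher and 17.3% as lower. Pet100, a chaperone of complex IV assembly, was the clearest rise, from 145.0 and 124.1 to 401.4 and 326.0 CPM (log2 fold 1.43, SE 0.19, adjusted p = 0.00224). Uqcc2, needed for cytochrome b of complex III, and Timmdc1, a complex I factor, rose with log2 folds of 1.30 and 0.87 (adjusted p = 0.0027 and 0.0138). Cox15, which makes haem A for complex IV, fell from 21.9 and 24.5 to 7.76 and 7.75 CPM (log2 fold -1.58, SE 0.26, adjusted p = 0.00363). Coa5, a complex IV factor, and Tmem186, a complex I factor, fell too (log2 folds -1.08 and -1.08, adjusted p = 0.00751 and 0.0304). The 3 listed proteins associated with ATP synthase rose: Usmg5, Atpif1, the inhibitor of its reverse reaction, and 2010107E04Rik, with log2 folds of 0.71, 0.63 and 0.70. Removing GC and length trends ended the calls of Uqcc2 (log2 fold 0.39, adjusted p = 0.15), Coa5 (-0.65, 0.0603), Tmem186 (-0.80, 0.0966), Usmg5 (0.41, 0.146), Atpif1 (0.03, 0.917) and 2010107E04Rik (0.43, 0.127). By the longest transcript Usmg5 stayed called (log2 fold 1.06, adjusted p = 0.00662) and Timmdc1 did not (0.62, 0.0536). Library size scaling called none of Timmdc1 (adjusted p = 0.0984), Usmg5 (0.197), Atpif1 (0.272) and 2010107E04Rik (0.249), and the fit with no low-count filter lost Atpif1 (0.0671) and 2010107E04Rik (0.0598). Pet100 and Cox15 were called in each alternative fit. Fits without a library lost the calls of Timmdc1 (adjusted p = 0.0536), Tmem186 (0.0923), Usmg5 (0.125) and 2010107E04Rik (0.101) without Nr1d1+/+ replicate 1, of Timmdc1 (0.109), Tmem186 (0.138), Usmg5 (0.0605), Atpif1 (0.254) and 2010107E04Rik (0.151) without Nr1d1+/+ replicate 2, of Usmg5 (0.0705) and Atpif1 (0.108) without Nr1d1-/- replicate 1 and of Tmem186 (0.0835), Atpif1 (0.0768) and 2010107E04Rik (0.133) without Nr1d1-/- replicate 2.

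Among 13 regulators of respiratory gene transcription, 1 rose and 4 fell, where 16.5% of all tested genes were higher and 17.3% lower. Ppargc1a, the PGC-1α coactivator (chr5:51454250-51567726, minus strand), rose from 13.5 and 12.2 to 40.4 and 28.0 CPM (log2 fold 1.41, SE 0.26, adjusted p = 0.00519). It stayed called in each fit that left out a library and after trend removal (log2 fold 2.02). Gabpa, the DNA-binding subunit of NRF2, fell from 25.6 and 37.6 to 13.1 and 12.5 CPM (log2 fold -1.30, SE 0.26, adjusted p = 0.00776), as did Tfb2m, a factor of mitochondrial transcription (log2 fold -1.24, adjusted p = 0.00602), and Myc, an oncogenic transcription factor (log2 fold -0.90, adjusted p = 0.0148, and 0.0921 without Nr1d1+/+ replicate 2). Gabpa was not called without Nr1d1+/+ replicate 2 (adjusted p = 0.0644) or with the trends removed (adjusted p = 0.0748). Gabpb1 was the remaining gene that fell, close to the threshold (log2 fold -0.72, adjusted p = 0.0494). Gabpb1 was not called with no low-count filter (adjusted p = 0.0587), with the replicate block (0.0551) or by DESeq2 (0.051). With the trends removed it was not called either (log2 fold -0.41, adjusted p = 0.245, and -0.31, 0.374 by the longest transcript). No fit that left out a library called it, with log2 folds from -0.92 to -0.58. Exons of Gabpa and of the subunit gene Atp5j overlap on opposite strands by 397 bases, and no source used here says if strand was used in counting.

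Log2 folds of the subunits went with the length and the GC content of their transcripts. Across the 81 tested subunits Spearman's rho of the log2 fold was -0.416 with transcript length and 0.524 with GC content, as a description over genes that share the libraries. Over all 14643 tested genes with both properties the values were -0.322 and 0.317. Of 53 subunits with transcripts under 1000 bases 40 rose, and in this length class 37.4% of all tested genes were higher and 2.7% lower. Of 28 subunits with longer transcripts 15 rose and 1 fell, against 14.4% of all longer genes that were higher. The median log2 folds were 0.95 and 0.57 for the short and the longer subunits, and 0.64 and -0.07 for all genes of the same classes. Among subunits with small or negative log2 folds, Sdha (2900 bases), Sdhc (3171), Ndufs1 (2661) and Atp5a1 (2471) had long transcripts and Ndufb3 (763) a short one, while Uqcrc1 (1653), Ndufv3 (1582) and Ndufa9 (1445) rose and Atp5j (809) and Cox7c (540) did not pass.

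**Figure D4:**
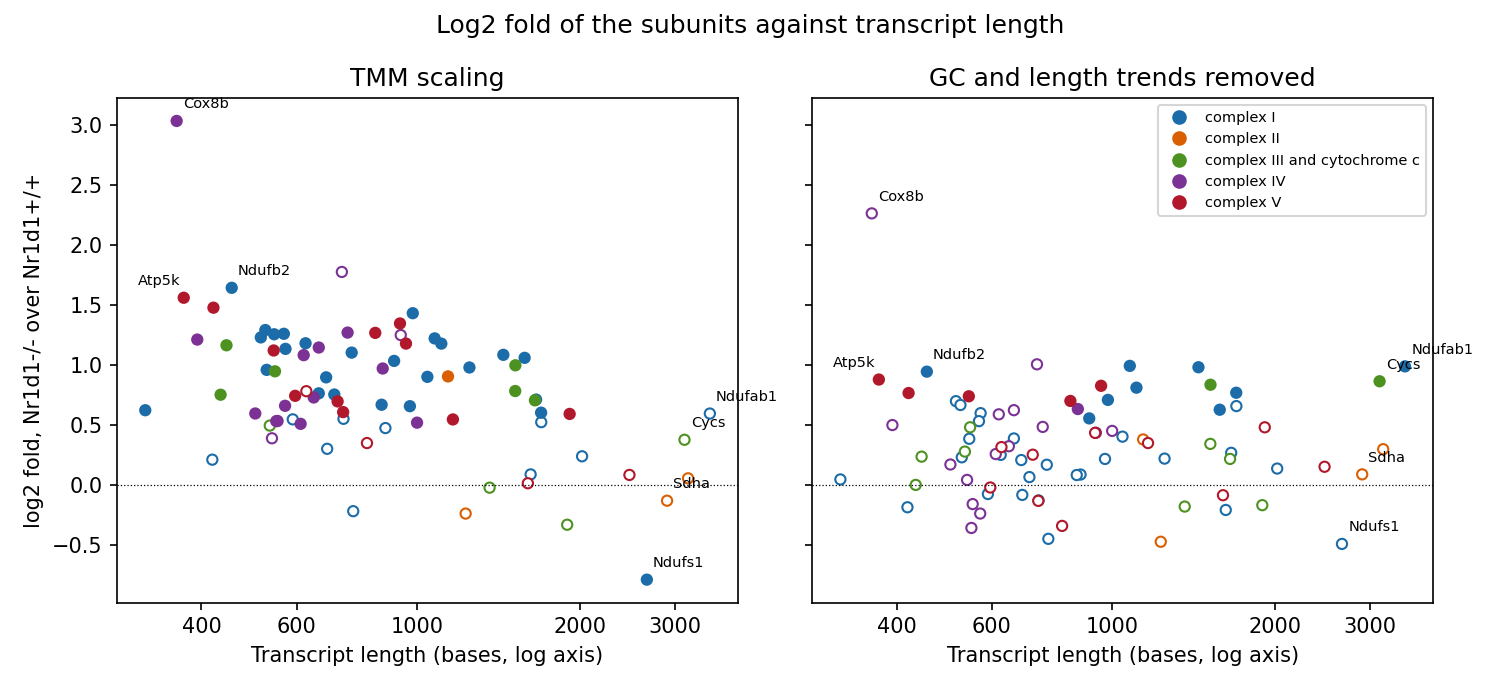
Log2 fold of each subunit against transcript length in bases (log axis), coloured by complex, filled where called. The left panel shows TMM scaling, where rho was -0.416, and the right panel the fit with GC and length trends removed, where it was -0.00545.

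With the GC and length trends of each library removed, 17 of 81 subunits were called higher by edgeR and none lower (2 were lower at an unadjusted p under 0.05, and DESeq2 without this removal called 1 lower), where 11.0% of all tested genes were higher and 10.3% lower. Of these 17, 15 were also called before the removal, and Cycs and Ndufab1 were added. The 15 were Atp5e, Atp5j2, Atp5k, Atp5l, Atp5o, Cox5b, Ndufa12, Ndufa9, Ndufb11, Ndufb2, Ndufb5, Ndufs8, Ndufv2, Ndufv3 and Uqcrq. By complex the counts were 9 in complex I, 0 in complex II (edgeR, with 0 higher and 1 lower at an unadjusted p under 0.05, and 1 higher by DESeq2 without this removal), 2 in complex III with cytochrome c, 1 in complex IV and 5 in complex V, and the median log2 folds were 0.26, 0.20, 0.26, 0.44 and 0.35. Of the subunits under 1000 bases 9 of 53 were higher, and of the longer ones 8 of 28. Removing a trend also removes any part of a genotype difference that follows length or GC content, and the share of each was not tested.

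Scaling moved the counts as well. By library size alone, without TMM factors, the median of all tested genes shifted to -0.38, 8.65% of genes were higher and 29.8% lower, and 33 subunits were higher and 4 lower. The subunits that lost a call of higher were Ndufa8, Ndufb4, Ndufb6, Ndufb9, Ndufc1, Ndufv1, Ndufv2, Cyc1, Uqcr10, Uqcrc1, Cox5a, Cox6a1, Cox6c, Cox7a1, Cox7b, Cox8a, Ndufa4, Atp5b, Atp5c1, Atp5g1, Atp5g2 and Atp5g3, with adjusted p from 0.0855 to 0.586. The median log2 folds of complexes I to V were then 0.45, -0.42, 0.35, 0.47 and 0.37. The medians of complexes I, III, IV and V thus remained above that of all genes.

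Other fits gave 54 higher subunits with DESeq2 size factors in edgeR (16.3% of all genes higher), 59 with DESeq2 (16.3%), 53 with the older quasi-likelihood estimate (15.6%), 40 with no low-count filter (10%, with adjusted p from 0.0505 to 0.078 for those lost) and 62 with the replicate number as a block (17.7%). Removing trends by the longest annotated transcript gave 21 (11.3%). With 3 libraries the higher subunits numbered 41 when Nr1d1+/+ replicate 1 was left out (9.57% of all genes higher), 29 when Nr1d1+/+ replicate 2 was left out (6.75%), 39 when Nr1d1-/- replicate 1 was left out (12.0%) and 49 when Nr1d1-/- replicate 2 was left out (15.3%). In these 4 fits the lone library of a genotype was assumed to vary like the others. The subunits called higher in all fits numbered 12: Atp5e, Atp5j2, Atp5k, Atp5l, Atp5o, Cox5b, Ndufa12, Ndufa9, Ndufb2, Ndufb5, Ndufs8 and Ndufv3.

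**Figure D5:**
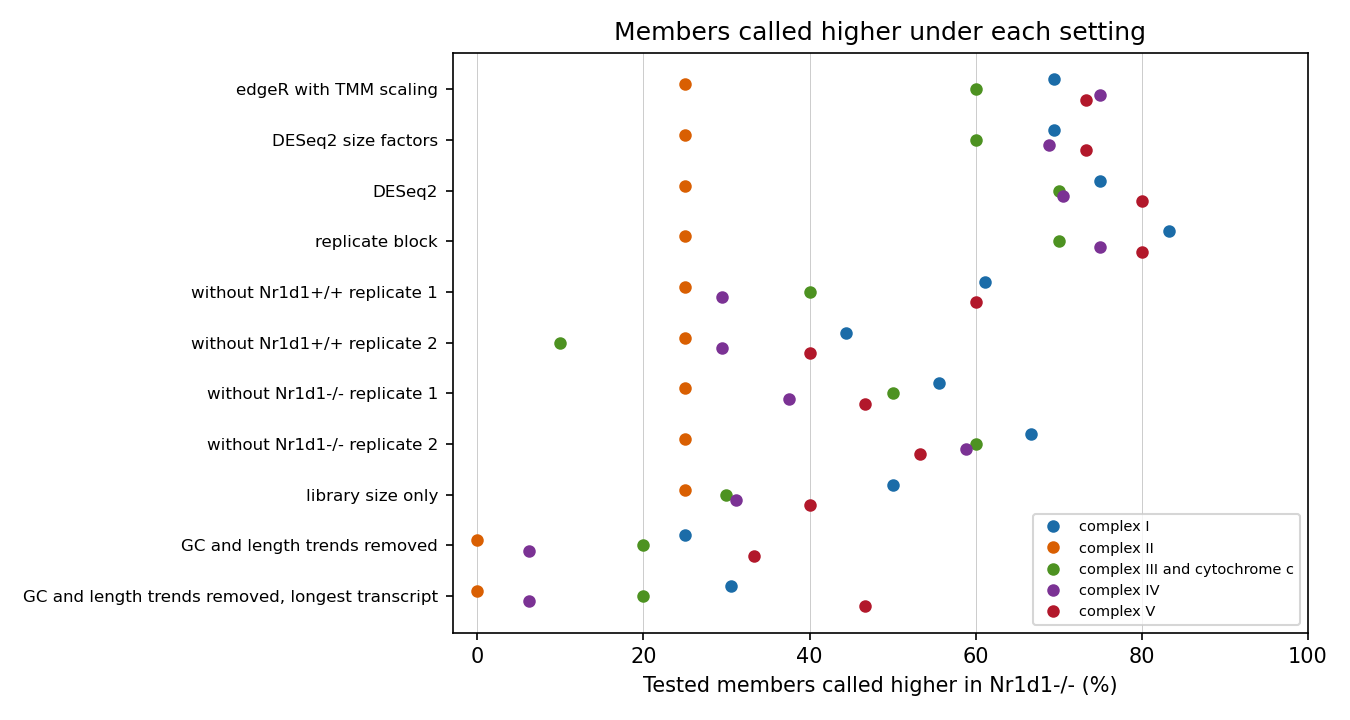
Share of tested members called higher in the libraries labelled Nr1d1-/- (horizontal axis, %) by fit (vertical axis), coloured by complex. The fits with no low-count filter and with the older quasi-likelihood estimate are not shown. Complex II stays at 1 of 4 or at 0, complex IV falls to 1 of 16 with GC and length trends removed, and complex III with cytochrome c to 1 of 10 without Nr1d1+/+ replicate 2.

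Gene structure limits single values. Of the 98 members 18 match a transcript of another annotated gene at 97% identity or more over at least 100 bases. Reads could be split between such genes in counting. A match of this kind need not be a copy of the gene: those of Ndufaf7 include Slfn5 and Zfp397. On the opposite strand, 32 members overlap exons of another gene. Ndufb5, for example, overlaps Mrpl47, and Ndufa13 overlaps Tssk6. The assembly factors Ndufaf2 and Sdhaf1 overlap B230220B15Rik and E130208F15Rik by 1955 and 1733 bases of exon. Ndufs1, the single member called lower, overlaps Eef1b2 and Ino80dos, by up to 489 bases of exon. Of the 12 subunits called in all fits, Atp5l, Atp5o, Cox5b and Ndufa12 match another annotated gene in this way.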

How the data were processed

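RNA was sequenced from 4 mammary tumour samples. Per the labels' protocols, RNA was taken up in Trizol and 1.3 ug of it went into Clontech SMARTer Stranded libraries; per the submitters' processing notes, reads were aligned with TopHat to mm10. The authors deposited raw counts per gene symbol. No version, counting program, annotation or use of strand in counting was given in the sources used here.

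The deposited counts went into edgeR 4.0.16 (quasi-likelihood F test, legacy=FALSE, R 4.3.3), with TMM factors of 1.11, 1.18, 0.858 and 0.895 (Nr1d1+/+ replicates 1 and 2, Nr1d1-/- replicates 1 and 2), the filterByExpr filter (minimum count 10), genotype as the only term and Benjamini-Hochberg adjustment over 14801 genes. The biological coefficient of variation was 0.249 with 2 residual degrees of freedom, and standard errors came from the fitted log2 fold and its F statistic. Total counts were 19116279, 17768820, 15905404 and 18017279, so that 3 counts, taken as the floor, stood for 0.142, 0.144, 0.22 and 0.186 CPM. Replicates differed by more than counting noise (chi-square per degree of freedom 40.7 and 52.8).

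Transcript length, GC content and positions came from GENCODE M21 (GRCm38, the assembly of mm10) for 14643 tested genes. Trends were removed as offsets, by natural splines with 5 degrees of freedom. Promoters were RefSeq windows. The edgeR fit and the trend removal were tested on simulated data. Alternatives were DESeq2 1.42.0, its size factors, library size alone, no filter, the older estimate, trend removal, a replicate block and leaving out each library.

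The members, lists and tests were chosen with earlier results of these data known. Named genes were, per complex, up to 4 called members a direction with the lowest p, the member with the highest level per kilobase, all isoform families and each member that fell, and up to 3 called genes a direction from each further list. Further subunits, and Gabpb1, were named after their values were seen, to account for each complex and for the regulators that fell. The values of 1 member are not reported here.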

Additional observations from a re-analysis of the deposited data

How the results depend on the processing

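Under the other scaling by size factors, DESeq2 and the older quasi-likelihood estimate, each count by complex stayed within 1.5 times its value. Scaling by library size alone gave 3 genes called higher in complex III with cytochrome c, 5 in complex IV, 6 in complex V and 0 assembly factors, and 22.5% of all calls were then higher, against 48.8%. Without a low-count filter complex IV gave 5. With the GC and length trends removed, 3121 genes were called in all, and the higher calls were 9 in complex I, 0 in complex II, 2 in complex III with cytochrome c, 1 in complex IV and 5 in complex V. Trends by the longest transcript, an alternative chosen after seeing the data, gave 3211, 11, 0, 2, 1 and 7, and 1 assembly factor. Leaving out each library in turn gave 2206 to 4759 called genes, 16 to 24 higher in complex I, 1 in complex II each time, 1 to 6 in complex III with cytochrome c, 5 to 10 in complex IV, 6 to 9 in complex V and 0 to 2 assembly factors. The cause of these shifts was not tested.

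The replicate numbers were not used to pair the samples. The deviations of same-numbered libraries correlated at 0.026 across genes, which cannot show that the samples are unpaired. Replicate 1 exceeded replicate 2 for 65 of 81 subunits within each genotype. With the replicate number as a block 5326 genes were called in all, and the higher calls were 30, 1, 7, 12 and 12 in complexes I to V and 4 among assembly factors.

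Some log2 folds changed sign, and no value with the changed sign passed its test. Those listed below are not all of them, and complex I genes are left out. In complex I 34 of 36 log2 folds were above 0 with TMM scaling. By library size 30 were, with the GC and length trends removed 29, and by the longest transcript 29. Library size scaling turned Sdhc to -0.32, Cycs to -0.0069, Atp5a1 to -0.30, Atp5f1 to -0.36 and Atp5j to -0.029. With no filter Atp5f1 was -0.015. Removing the GC and length trends turned Sdha to 0.090, Cox6a1 to -0.24, Cox6b2 to -0.16, Cox8a to -0.36, Atp5f1 to -0.084, Atp5g1 to -0.019, Atp5g2 to -0.13 and Atp5j to -0.34. By the longest transcript these were 0.067 (Sdha), -0.25 (Cox6a1), -0.22 (Cox6b2), -0.37 (Cox8a), -0.13 (Atp5f1), -0.16 (Atp5g2) and -0.37 (Atp5j), with Uqcr10 at -0.022, Atp5a1 at -0.038 and Atpif1 at -0.0039. Over the 4 fits without 1 library the log2 folds ran from -0.084 to 0.14 for Sdhc, -0.11 to 0.014 for Uqcrfs1, -0.019 to 0.12 for Atp5a1, -0.024 to 0.027 for Atp5f1 and -2.57 to 0.12 for Sdhaf3. Sdhaf3 was called lower without Nr1d1-/- replicate 2 (adjusted p = 0.0327) and had the opposite sign without Nr1d1-/- replicate 1 (adjusted p = 0.88).

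With 2 libraries a genotype and 2 residual degrees of freedom, precision is limited by the number of libraries more than by depth for most members. Cox7b2 and Cox8c lay under the floor of 3 counts in each library, where a difference was not detectable at this depth.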
